A study of Saccharomyces cerevisiae with 116 samples.

Results

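Hh8 is a diploid line of budding yeast (Saccharomyces cerevisiae) that its labels give as tetrasomic for chromosome XVI, with 4 copies of this chromosome in place of 2. It was set against the 5 euploid lines of the same experiment, Hh1, Hh2, Hh3, Hh5 and Hh9, which the labels give as having gained or lost no chromosome. RNA was sequenced from 3 colonies of each line, so that 3 Hh8 libraries and 15 euploid libraries of the 116 in the series entered the comparison. All 6 lines descend from 1 heterozygous diploid ancestor, a mating of NCYC 3631 with NCYC3596. The first is derived from the oak strain YPS606 and is Matalpha, the second is derived from DBPVG1106, as the labels spell it, and is Mata. All carry the genotype ho, ura3. The lines were kept apart on rich glucose plates for 2108 generations through bottlenecks of a single colony, and the colonies were then grown in liquid rich glucose medium at 30 °C. Hh8 is a single line, so the extra copies of chromosome XVI and any other mutation it carries cannot be told apart. Genes on chromosome XVI (522 identifiers beginning with YPL or YPR) and the genes on all other chromosomes (6245 features) are described separately.

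Each extra copy of a chromosome adds a template for every gene on it, and in aneuploid yeast the RNA of most such genes is known to follow the copy number. Chromosome XVI carries genes of many pathways, among them several transcription regulators (GAL4, HAA1, AFT2, ROX1, GCR1, CUP9, ARR1). The targets listed here for GAL4, HAA1, AFT2, ROX1 and GCR1 lie mostly on other chromosomes. Both listed targets of ARR1 and 1 of the 2 of CUP9 lie on XVI. A gain of the chromosome therefore alters the dose of its own genes and of regulators of genes elsewhere.

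Levels are given as scaled CPM, that is counts scaled to library size so that genes off chromosome XVI match between libraries. The 18 libraries held 4675391 to 10366790 reads in genes. The Hh8 colonies held 5082249, 7729377 and 7091949. The share of reads without a unique alignment ran from 7.92% to 40.0% (median 10.2%), with 2 libraries over 30%, Hh8 colony 3 and Hh3 colony 3. Hh8 colony 2 stood apart from its sister colonies: over genes off chromosome XVI its log2 levels correlated with those of colonies 1 and 3 at r = 0.791 and 0.771, where colonies 1 and 3 gave 0.975 (across genes, which are not independent replicates). On the first principal component of the 18 libraries it stood with 3 euploid libraries, Hh1 colonies 1 and 2 and Hh9 colony 1. ADH2, the glucose-repressed alcohol dehydrogenase, was at 90.1, 5039 and 104 CPM in the 3 Hh8 colonies and reached 8258 CPM among the euploid libraries. URA3, labelled as mutant in all 6 lines, reached at most 2 counts in any of the 18 libraries. The summed level of 7 a-specific genes (144, 148 and 145 CPM in Hh8, 89.3 to 162 CPM in euploid libraries) lay within the euploid range. Their median log2 level in colony 2 was 0.87, above the highest euploid library at 0.44. The 14 haploid-specific genes summed to 244, 231 and 244 CPM, within the euploid range of 159 to 272 CPM. The 4 alpha-specific genes off XVI summed to 53.2, 88.9 and 63.1 CPM against 42.7 to 76.4 CPM, so colony 2 lay above the euploid libraries.

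Chromosome XVI was read at close to 4 copies in every Hh8 colony. The median log2 ratio of its 480 tested genes to the mean of the 5 euploid lines was 0.97, 0.92 and 0.92 in colonies 1, 2 and 3, a mean of 0.93 ± 0.03 (SD, n = 3 colonies), where 4 copies in proportion give 1. The 15 euploid libraries lay between −0.04 and 0.07, and the 3 libraries of the Hh ancestor between 0.02 and 0.03. On the other 15 nuclear chromosomes the 45 medians of the Hh8 colonies ran from −0.09 to 0.15, beside −0.14 to 0.12 in the euploid libraries. The highest, 0.15 on chromosome IX, came from colony 2, whose sisters were at −0.03 and −0.09. With 1 line against 5 an exact permutation test over lines cannot give a two-sided p below 0.167, so the level of the chromosome is a description.

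**Figure D1:**
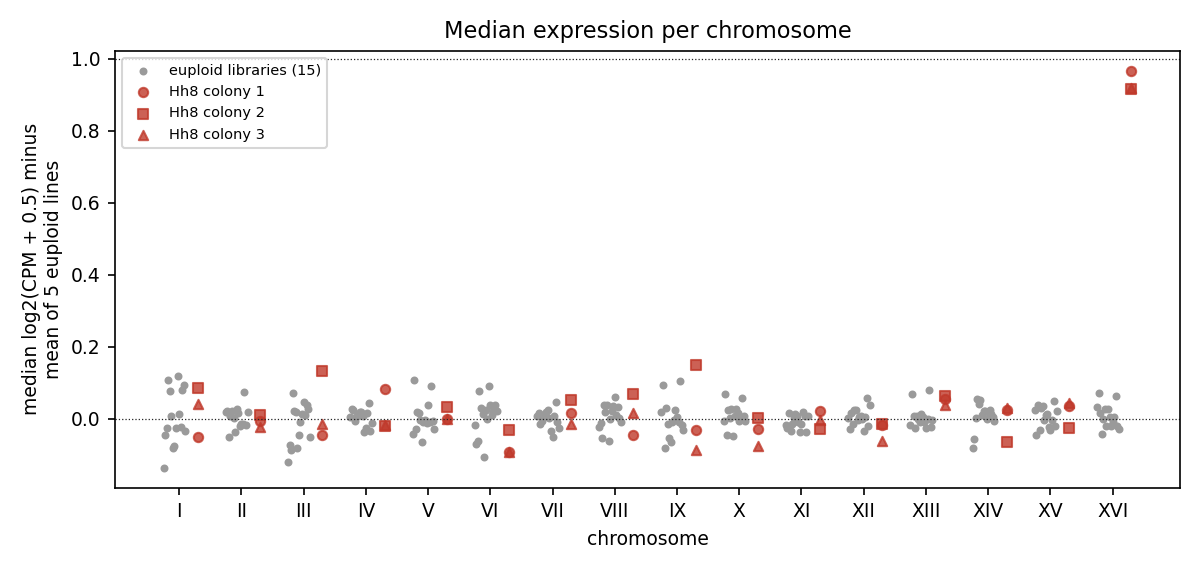
Median over tested genes of log2(CPM + 0.5) minus the mean of the 5 euploid lines (y axis) for each nuclear chromosome (x axis), with 1 grey point for each of 15 euploid libraries and 1 red symbol for each Hh8 colony. Dotted lines mark 2 copies at 0 and 4 copies in proportion at 1. The Hh8 colonies are at 0.92 to 0.97 on XVI and between −0.09 and 0.15 elsewhere.

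The raised level ran along the whole chromosome. In 8 runs of 57 genes ordered by position, the mean of the 3 colonies was 0.79 ± 0.11 (SD, n = 3) in the leftmost run (XVI:11887-129138, R64 build, which is sacCer3) and 1.06 ± 0.02 in the fourth run (XVI:355700-466261), with the other 6 runs between 0.92 and 1.05. No run of any colony fell below 0.71, and no euploid library exceeded 0.17. The leftmost run was the most uneven between colonies, at 0.91, 0.73 and 0.71. The left arm (281 genes) was at 0.92 ± 0.05 and the right arm (199 genes) at 0.95 ± 0.03 (SD, n = 3), a difference within the spread of the colonies.

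**Figure D2:**
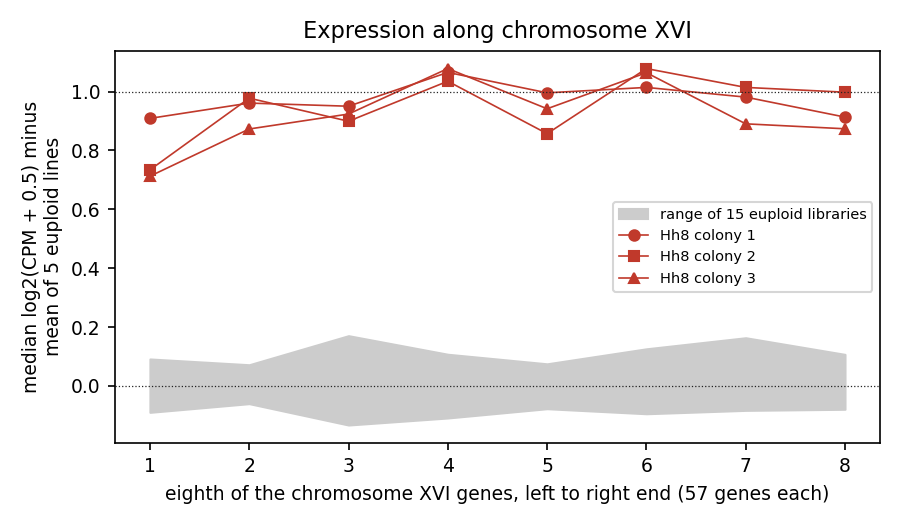
Median log2(CPM + 0.5) minus the mean of the 5 euploid lines (y axis) in 8 consecutive runs of 57 chromosome XVI genes (x axis, from the left to the right end). The grey band spans the 15 euploid libraries, and each red line is 1 Hh8 colony. The leftmost run is lowest, with a mean of 0.79, and every run of every colony lies at 0.71 or above.

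Gene by gene, 174 of the 480 tested chromosome XVI genes rose in Hh8 and none fell (36.2% called, edgeR's quasi-likelihood test on line sums with Benjamini-Hochberg adjustment over 6308 genes at 0.05). Of the 522 identifiers 42 did not pass the filter on low counts, and 11 passed it only through Hh8, whose levels there had to be high. Off chromosome XVI 9 of 5675 genes passed (0.159% called), 3 higher and 6 lower, and 185 of the 5675 had passed the filter only through Hh8. The median log2 ratio was 0.92 on chromosome XVI, with quartiles of 0.67 and 1.11, and −0.01 elsewhere, with quartiles of −0.22 and 0.16. Ratios between 0.5 and 1.5 were found for 393 chromosome XVI genes (81.9%), and 84.4% of genes elsewhere lay within 0.5 of 0, so the distribution was shifted with a like width. Only 19 tested chromosome XVI genes had a ratio below 0, and 18 had one above 1.5. In 207 of the 480 genes all 3 colonies lay above all 15 euploid libraries (43.1%), against 19 of 5675 elsewhere (0.335%). The count of 174 rested on the euploid lines that set the spread: it was 0 without Hh2, 0 without Hh3 and 38 without Hh9, while the median level of the chromosome was 0.92 to 0.94 when any 1 colony of Hh8 or any 1 euploid line was left out. It was 45 without Hh8 colony 2 and the 3 euploid libraries that stand with it.

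**Figure D3:**
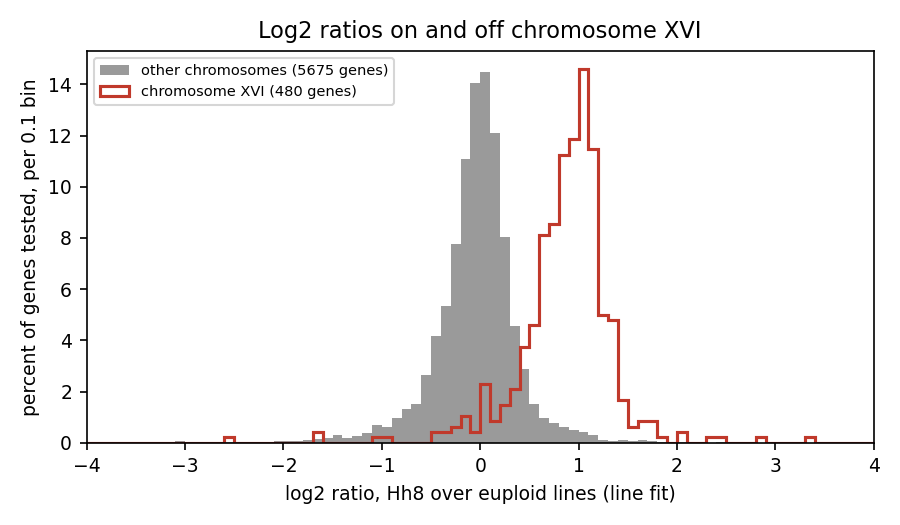
Percent of tested genes (y axis) in bins of 0.1 of the log2 ratio of Hh8 to the euploid lines (x axis), for 480 genes on chromosome XVI (red outline) and 5675 genes elsewhere (grey). The red distribution is centred at 0.92 and the grey at −0.01.

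The call rate differed between classes of expression level and was highest in the third of 4 classes. On chromosome XVI it was 11.1% of 63 genes under 10 CPM in euploid lines, 37.5% of 128 genes from 10 to 50 CPM, 48.6% of 212 genes from 50 to 200 CPM and 20.8% of 77 genes above 200 CPM. The median ratios of these classes were 0.86, 0.97, 0.94 and 0.84. Genes above 200 CPM were also the most spread, with quartiles of 0.47 and 1.11.

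Among the genes with the smallest p were ones of the cell's routine machinery. GYP5, a GTPase-activating protein of vesicle traffic, was at 157, 135 and 194 CPM in the Hh8 colonies and at 47.8 to 72.7 CPM (median 59.4) in the euploid libraries. Its log2 ratio was 1.40 ± 0.15 (SE), edgeR adjusted p = 0.0219. MFM1, a relative of the mitochondrial magnesium channel Mrs2, was at 94.1, 103 and 89.4 CPM against 26.4 to 42.4 CPM (1.35 ± 0.16, edgeR adjusted p = 0.0219). TFB2, a subunit of the transcription factor TFIIH, was at 114, 63.8 and 110 CPM against 25.6 to 54.5 CPM (1.39 ± 0.17, edgeR adjusted p = 0.0219). In all 3 genes the colonies lay clear of the euploid range, and in TFB2 colony 2 was the nearest to it. These 3 were picked as examples after their values were seen.

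Genes of large complexes were read next. Of 13 ribosome biogenesis genes on XVI, 4 passed the test and all 13 had a ratio above 0 (median 0.99). Over all tested genes on XVI 36.2% passed, 96.0% had a ratio above 0 and the median was 0.92. TIF6, needed to form the large ribosomal subunit, was at 560, 645 and 513 CPM against 189 to 276 CPM (1.31 ± 0.19, edgeR adjusted p = 0.0222). BMS1, a GTPase of small subunit maturation, was at 155, 130 and 145 CPM against 41.1 to 85.9 CPM (1.05 ± 0.21, edgeR adjusted p = 0.0464). The other members called were NIP7 and DIM1. The 107 ribosome biogenesis genes on other chromosomes had a median of 0.11, and none passed.

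Cytosolic ribosomal protein genes varied more between colonies. On XVI 3 of 10 tested genes rose, RPS6A, RPL7B and RPL11A, with a list median of 1.15, beside 36.2% of all tested XVI genes called. Of 126 tested elsewhere none passed, with a median of 0.21. RPL11A was at 201, 449 and 154 CPM in the colonies and at 40.8 to 184 CPM in the euploid libraries, so colony 3 overlapped the euploid range and colony 2 was far above it. The summed level of the 127 ribosomal protein genes off XVI was 28653, 72698 and 20970 CPM in the 3 colonies, against 12879 to 61392 CPM in euploid libraries. Its part in the calls on XVI was not tested. Many of these genes have near-identical copies, and reads that do not align uniquely were not counted, so their values are uncertain. The proteasome genes PRE2 and RPN7, a catalytic and a regulatory subunit, had all colonies above the euploid range. PRE2 passed the test (1.05 ± 0.20, edgeR adjusted p = 0.0410), and RPN7, at 302, 302 and 270 CPM against 119 to 184 CPM, did not (0.85 ± 0.21, edgeR adjusted p = 0.0945). The 32 proteasome genes elsewhere had a median of −0.03 and none passed.

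Regulators encoded on chromosome XVI were read next with the genes they are known to act on. GAL4, the activator of the galactose genes, was at 113, 149 and 167 CPM against 52.9 to 71.8 CPM in euploid libraries. It rose by a log2 ratio of 1.19 ± 0.15 (SE, edgeR adjusted p = 0.0219). None of 7 Gal4 target genes off XVI passed, beside 0.159% of all genes off XVI, and their median ratio was 0.26. By colony their median log2 level was 0.69, −0.14 and 0.70, against −0.67 to 0.34 in euploid libraries, so colonies 1 and 3 lay above that range. HAA1, the activator of the response to weak acids, was at 353, 537 and 351 CPM against 145 to 255 CPM (1.17 ± 0.19, edgeR adjusted p = 0.0262). Of 10 Haa1 target genes off XVI none passed (median 0.34). By colony their median log2 level was 0.18, 0.81 and 0.51, against −0.32 to 0.30 in euploid libraries, so colonies 2 and 3 lay above that range. The single target on XVI, TPO3, a polyamine exporter, rose by 1.28 ± 0.26 (edgeR adjusted p = 0.0458), with colonies at 225, 120 and 345 CPM and euploid libraries at 43.6 to 199.5 CPM.

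AFT2, a regulator of iron genes, rose by 1.08 ± 0.22 (edgeR adjusted p = 0.0464), with 198, 94.8 and 207 CPM against 50.2 to 103 CPM, so colony 2 overlapped. None of 6 Aft2 genes passed (median 0.08, beside 0.159% of all genes off XVI called). By colony their median log2 level was 0.04, 0.15 and 0.29, against −0.33 to 0.23 in euploid libraries. ARR1, the activator of arsenic resistance genes, was at 170, 229 and 186 CPM against 67.1 to 143 CPM (1.03 ± 0.19, edgeR adjusted p = 0.0365). Both its targets lie beside it on XVI and neither passed (median 0.79). PHO85, a cyclin-dependent kinase that represses the phosphate genes, and GCR1, the activator of glycolytic genes, had all colonies above the euploid libraries without passing (0.79 ± 0.23 and 0.73 ± 0.22, edgeR adjusted p = 0.159 and 0.175). All 10 Gcr1 target genes had ratios above 0 (median 0.47), none passed, and their summed level of 4931, 47048 and 3436 CPM was carried by colony 2. ROX1, the repressor of hypoxic genes, was at 391.6, 143 and 524 CPM against 123 to 414 CPM and did not pass (0.50 ± 0.25, edgeR adjusted p = 0.559). Its target ANB1, the hypoxic form of translation factor eIF5A, passed with a rise of 1.85 ± 0.32 (edgeR adjusted p = 0.0294) that came from colony 2 alone, at 1.17, 27.2 and 1.62 CPM against 1.53 to 5.65 CPM. Without colony 2 the ratio of ANB1 was −0.88. ANB1 was the only gene called of 10 listed Rox1 hypoxic genes off XVI, where 0.159% of all genes passed. Of the 10, 7 had ratios above 0 and 3 below 0, with a median of 0.34.

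The regulator CUP9 and its 2 listed targets did not pass the test on line sums. Cup9 represses PTR2, the peptide importer gene on chromosome XI, and OPT2, an oligopeptide transporter gene on XVI. CUP9 itself was at 300, 513 and 353 CPM against 156 to 354 CPM and did not pass (0.69 ± 0.23, edgeR adjusted p = 0.264). OPT2 was at 40.7, 33.7 and 37.7 CPM, below all 15 euploid libraries, which ran from 47.9 to 355 CPM with a median of 239. The euploid line Hh5 was also low, with a mean of 63.2 CPM, while Hh1, Hh2, Hh3 and Hh9 had means of 223, 274, 275 and 254 CPM. The ratio of OPT2 was −2.56 ± 0.79 and did not pass on line sums (edgeR adjusted p = 0.211), while it passed with colonies as samples (edgeR adjusted p = 0.00114). Here and below, the test with colonies as samples measures the spread between colonies of a line and not between lines. PTR2 was at 78.0, 63.4 and 95.1 CPM against 45.9 to 274 CPM (−1.06 ± 0.34, edgeR adjusted p = 0.223). Both were lower in Hh8 than in the 9 other aneuploid Hh lines, OPT2 by −3.28 and PTR2 by −1.76 (edgeR adjusted p = 0.0472 and 0.0253), a comparison that shares the Hh8 libraries with the first.

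Departure from 4 copies was tested next, by asking whether the log2 ratio of a chromosome XVI gene differed from 1. None of the 480 genes passed (0% called) on line sums, with 44 at an unadjusted p under 0.05. With colonies as samples, 5 of 471 genes (1.06%) were called below proportion and none above, and DESeq2 on line sums called 10 of 480 (2.08%), all below. The genes described here are those with the smallest p in each direction, and none passed in the main test.

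Below proportion, YPL257W, a gene of unknown role, had the smallest p. It was at 2.33, 2.03 and 1.74 CPM against 3.11 to 10.6 CPM, a departure of −2.62 ± 0.46 (SE, edgeR adjusted p = 0.438). ALD6, the cytosolic aldehyde dehydrogenase that makes acetate, was at 429, 431 and 422 CPM in the colonies and at 335 to 1474 CPM (median 874) in the euploid libraries, a departure of −2.01 ± 0.44 (edgeR adjusted p = 0.482). The 3 colonies agreed closely and sat in the lower part of a wide euploid range. ODC1, a mitochondrial carrier of dicarboxylates, was at 644, 857 and 508 CPM against 317 to 1222 CPM (−1.42 ± 0.30). YIG1, linked to glycerol metabolism, was at 157, 444 and 114 CPM against 73.4 to 677 CPM (−1.35 ± 0.30). SAM4, a homocysteine methyltransferase, was at 240, 119 and 167 CPM against 107 to 238 CPM, a departure of −1.13 ± 0.25, so that its level lay near that of the euploid lines. Each of these 4 had an edgeR adjusted p of 0.482. MEP3, an ammonium permease, was among the 5 genes called with colonies as samples (edgeR adjusted p = 0.00270), at 197, 207 and 206 CPM against 134 to 254 CPM. YPL257W, OPT2, ALD6 and SAM4 were the other 4.

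Above proportion, EEB1, an enzyme that makes fatty acid ethyl esters, was at 496, 157 and 1447 CPM against 36.6 to 212 CPM. Colonies 1 and 3 were far above the euploid range and colony 2 within it. It rose against the euploid lines by 2.50 ± 0.35 (edgeR adjusted p = 0.0219) and its departure from 4 copies was 1.5 ± 0.37 (edgeR adjusted p = 0.548). YPL088W, a putative aryl alcohol dehydrogenase, was at 188, 418 and 204 CPM against 64.1 to 115 CPM (departure 0.69 ± 0.18, edgeR adjusted p = 0.605). THI21, a kinase of thiamine synthesis with close relatives in the genome, was at 75.3, 127 and 82.0 CPM against 22.3 to 51.6 CPM (departure 0.60 ± 0.24, edgeR adjusted p = 0.810). YPL068C, of unknown role, had a departure of 0.72 ± 0.23 with all colonies (28.7, 21.0 and 32.0 CPM) above the euploid libraries (5.12 to 13.1 CPM). YPR145C-A, a small open reading frame at 19.5, 143 and 10.8 CPM against 1.81 to 25.5 CPM, owed its departure of 1.90 ± 0.50 to colony 2, without which it was at −0.003.

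**Figure D4:**
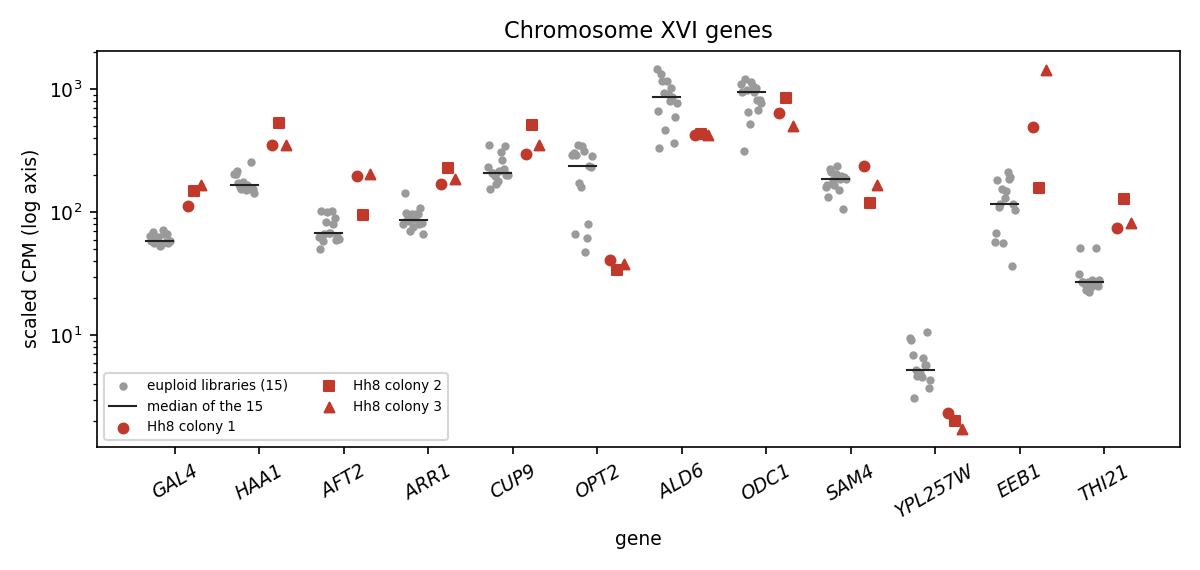
Scaled CPM (y axis, log scale) of 12 chromosome XVI genes (x axis) in 15 euploid libraries (grey points, black line at their median) and 3 Hh8 colonies (red symbols). GAL4, HAA1, ARR1 and THI21 lie above the euploid range, OPT2 and YPL257W below it, and ALD6 and ODC1 inside it. SAM4 lies inside it in colonies 2 and 3.

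A gained chromosome XVI also occurs in line HH112, labelled trisomic for XVI, which was used to ask whether the same genes depart from proportion in another strain. HH112 descends from a homozygous S288C derivative (ho ade2 with the alleles lys2-801 and his3-delta-D200, and also leu2-3.112 and ura 3-52) after 2063 generations. It was set against 2 euploid HH lines of its name series, HH50 and HH115, so that the lines compared are not shared with Hh8. Both comparisons were taken from 1 joint fit, which also held the 9 euploid HH lines of the other name series as a separate group. The SE and p-values of that fit rest on a spread estimated over all its lines, so the comparisons share that estimate. HH112 and its 2 euploid lines each have a colony with a high share of reads without a unique alignment, 60.7% in HH112, 68.4% in HH115 and 40.0% in HH50. Over 487 chromosome XVI genes the median departure was −0.08 in Hh8, with quartiles of −0.33 and 0.11, and −0.01 in HH112, with quartiles of −0.31 and 0.21. Across these genes, which are not independent replicates, the departures of the 2 lines correlated at r = 0.244. In HH112 3 genes were called below proportion (0.616% called), YIG1, ROX1 and QCR2, and none above. YIG1 departed by −2.33 ± 0.40 in HH112 (edgeR adjusted p = 0.0209) beside −1.35 in Hh8. ODC1 was at −1.70 ± 0.39 in HH112 and did not pass (edgeR adjusted p = 0.0626), beside −1.42 in Hh8. SAM4 went the other way, at 0.81 ± 0.28 in HH112 beside −1.13 in Hh8. ALD6 was at −0.84 ± 1.06 in HH112 beside −2.01 in Hh8, and neither passed in HH112. The difference between the lines was called for 1 of 487 genes (0.205% called), YPL257W, which departed by 0.03 ± 0.30 in HH112, a difference of −2.65 ± 0.44 (edgeR adjusted p = 0.0355). Without Hh8 colony 3, Hh5 or Hh9 that count was 0. Without the 6 libraries of the joint fit that had over 30% of reads not uniquely aligned, 34 of 487 XVI genes were called as departing in HH112, 17 in each direction. YIG1, ROX1, QCR2 and also ODC1 were then called lower (edgeR adjusted p = 0.0102, 0.0111, 0.0111 and 0.00947), and the difference for YPL257W was −2.50 (edgeR adjusted p = 0.0446). OPT2 departed by −0.49 ± 0.72 in HH112, and its difference of −3.07 ± 0.99 did not pass (edgeR adjusted p = 0.514).

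Off chromosome XVI, the 6 genes that fell had every Hh8 colony below every euploid library, and the first 3 by size include enzymes of amino acid synthesis. ARG4, argininosuccinate lyase of arginine synthesis (VIII:140011-141402, R64), was at 471, 382 and 337 CPM against 809 to 2095 CPM (median 1512) in euploid libraries and 1335 to 1518 CPM in the ancestor. It fell by a log2 ratio of −1.96 ± 0.34 (SE, edgeR adjusted p = 0.0294). ARO5 (identifier YGL117W, VII:288512-289309) was at 82.3, 235 and 71.9 CPM against 248 to 627 CPM (−1.57 ± 0.32, edgeR adjusted p = 0.0457). STR3, the cystathionine beta-lyase of methionine synthesis (VII:154615-156012), was at 26.5, 41.7 and 29.5 CPM against 55.5 to 105 CPM (−1.43 ± 0.27, edgeR adjusted p = 0.0363). In all 3 the colonies and the euploid libraries did not overlap, and in ARO5 colony 2 was close to the lowest euploid library.

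The other 3 were GLG2, BSC5 and YNR068C. GLG2, a glycogenin that primes glycogen synthesis, was at 68.8, 86.5 and 75.8 CPM against 124 to 294 CPM (−1.15 ± 0.20, edgeR adjusted p = 0.0294). It was also lower in HH112 than in its euploid lines, by −1.93 ± 0.32 (edgeR adjusted p = 0.0189), where ARG4, ARO5 and STR3 were at −0.59, −0.82 and −1.02 and did not pass (edgeR adjusted p = 0.566, 0.564 and 0.618). BSC5 (31.7, 17.5 and 33.2 CPM against 44.2 to 84.8 CPM) and YNR068C (38.8, 19.97 and 38.1 CPM against 48.1 to 91.9 CPM) are neighbours near the right end of chromosome XIV, at 761123-762592 and 760067-760885. They fell by −1.29 ± 0.18 and −1.19 ± 0.20 (edgeR adjusted p = 0.0219 and 0.0281). Of the 3 genes that passed as higher, YOR389W and GAS4 were raised in colonies 1 and 3 and within the euploid range in colony 2. YOR389W, of unknown role, was at 130, 50.5 and 203 CPM against 20.9 to 85.3 CPM (1.68 ± 0.23, edgeR adjusted p = 0.0219). GAS4, a glucanosyltransferase of the spore wall, was at 17.5, 3.76 and 19.5 CPM against 3.64 to 9.71 CPM (1.13 ± 0.23, edgeR adjusted p = 0.0486). The third was ANB1.

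The number of genes called off chromosome XVI depended on the libraries and on the unit of replication. It was 17, 45 and 34 without Hh8 colony 1, 2 or 3, 17 and 22 without the euploid line Hh1 or Hh5, 2 without Hh9 and 0 without Hh2 or Hh3. DESeq2 on line sums called 93 genes (1.64% called), 16 higher and 77 lower. The test with colonies as samples called 133 (2.42% called), 63 higher and 70 lower.

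Most amino acid synthesis genes had lower values in Hh8, although only ARG4 passed the test on line sums. Of 61 such genes off chromosome XVI, 52 had a ratio below 0, with a median of −0.49 beside −0.01 for all genes off XVI. In 11 of them (18.0%) all 3 colonies lay below all 15 euploid libraries, where 0.705% of all genes off XVI did so. With colonies as samples, 15 of the 61 were called lower and none higher (1.28% of all genes off XVI were called lower in that test). That test measures the spread between colonies, not between lines. The 34 genes of methionine and sulfate assimilation off XVI had a median of −0.77, with 30 below 0, STR3 called, and 3 with all colonies below. On chromosome XVI 2 of 5 such genes rose, beside 36.2% of all tested genes there. MET31, a regulator of sulfur genes, was at 32.2, 51.5 and 29.9 CPM against 11.8 to 21.4 CPM (1.05 ± 0.18, edgeR adjusted p = 0.0294). MET12, a methylenetetrahydrofolate reductase, was at 182, 150 and 244 CPM against 73.0 to 123 CPM (0.87 ± 0.17, edgeR adjusted p = 0.0434), so neither overlapped. The list on amino acid synthesis was drawn up with earlier results of these data known, and its direction is a description.

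Several arginine synthesis genes beside ARG4 had low values. ARG1, argininosuccinate synthase, was at 269, 357 and 189 CPM against 365 to 1642 CPM (−1.75 ± 0.42, edgeR adjusted p = 0.0824). ARG7, an acetyltransferase of ornithine formation, was at 134, 161 and 95.2 CPM against 174 to 327 CPM (−0.90 ± 0.21, edgeR adjusted p = 0.0684). Neither passed on line sums and both had every colony below the euploid libraries. ARG3, ornithine carbamoyltransferase, and CPA1 were nearer the euploid level, with ratios of −0.25 and −0.31.

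Further genes of the list, chosen for their values, belong to other pathways. HIS4, which carries several steps of histidine synthesis, was at 144, 253 and 168 CPM against 252 to 1048 CPM, with colony 2 just inside the euploid range (−1.79 ± 0.38, edgeR adjusted p = 0.0549). HIS1, the first enzyme of that pathway, was at 73.3, 114 and 65.6 CPM against 117 to 205 CPM (−0.86 ± 0.19, edgeR adjusted p = 0.0576). ARO1, the multifunctional enzyme of the shikimate pathway, was at 312, 327 and 345 CPM against 566 to 1006 CPM (−1.32 ± 0.29, edgeR adjusted p = 0.0615). Its colonies differed little and lay well below the lowest euploid library. TRP3, of tryptophan synthesis, was at 105, 74.1 and 91.5 CPM against 119 to 198 CPM (−0.85 ± 0.21, edgeR adjusted p = 0.0951). LEU4, the isopropylmalate synthase that opens leucine synthesis, was at 692, 700 and 800 CPM against 909 to 2759 CPM (−1.21 ± 0.30, edgeR adjusted p = 0.0871). HOM3, the aspartate kinase that feeds threonine and methionine, was at 219, 179 and 181 CPM against 347 to 737 CPM (−1.45 ± 0.31, edgeR adjusted p = 0.0580). Apart from HIS4, all of these had no overlap between Hh8 and euploid libraries. With colonies as samples all of them passed, HIS4 included, but that test measures the spread between colonies and not between lines.

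Some branches had values near the euploid level. Lysine genes lay near 0 or on either side of it, with LYS9 at 0.38, LYS12 at 0.09, LYS20 at −0.03 and LYS2 at −0.45, none called. LEU1, of leucine synthesis, was at 0.17 and HIS6, of histidine synthesis, at 0.25. On chromosome XVI the list has 3 members, ARO7, GLN1 and ASN1, at 0.84, 0.85 and −0.13, none called on line sums. GCN4, the activator of the amino acid synthesis genes, whose activity is set mainly by translation of its mRNA, was at 2171, 3574 and 2208 CPM against 2047 to 5576 CPM and did not pass (−0.17 ± 0.37, edgeR adjusted p = 0.962).

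**Figure D5:**
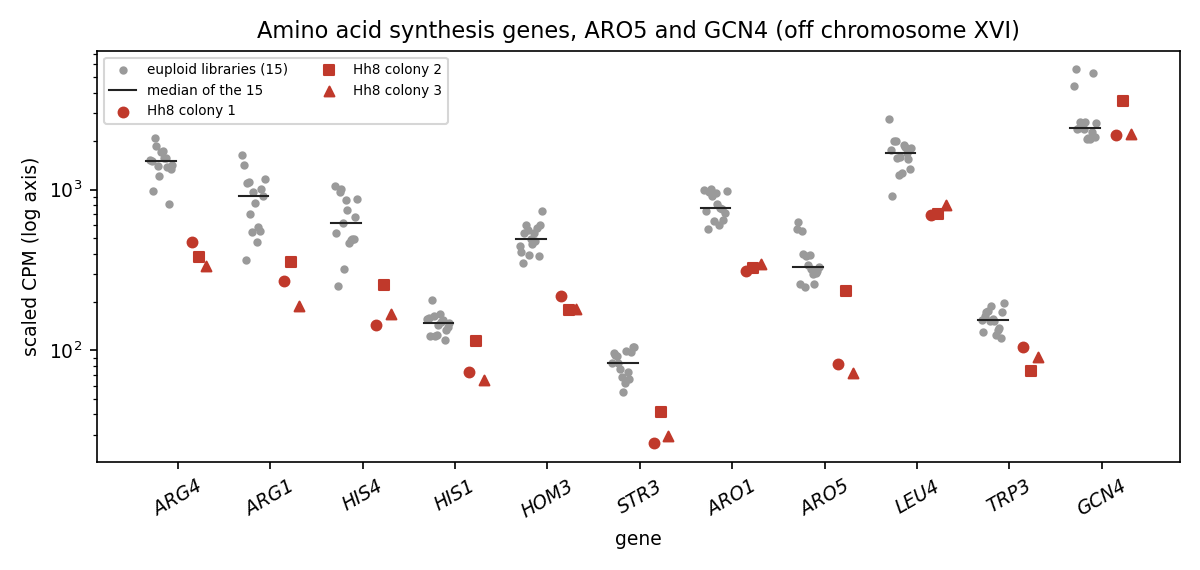
Scaled CPM (y axis, log scale) of 9 amino acid synthesis genes, ARO5 and GCN4 (x axis) in 15 euploid libraries (grey points, black line at their median) and 3 Hh8 colonies (red symbols). For all but HIS4 and GCN4 the 3 red symbols lie below all grey points.

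Colony 2 shared the lower level only in part. The median log2 level of the 61 genes was −0.67 in colony 1, −0.17 in colony 2 and −0.68 in colony 3, relative to the mean of the euploid lines, where euploid libraries ran from −0.53 to 0.34. Their summed level was 10091, 16270 and 10523 CPM, against 14285 to 26317 CPM in euploid libraries. The 3 euploid libraries that stand with colony 2 were at 25881, 26317 and 19882 CPM, all above colony 2. As a mean of log2 levels over colonies the median of the list was −0.44 with all libraries, −0.69 without colony 2, and −0.56 without it and those 3 libraries. In that last setting 26 of the 61 genes (42.6%) had all colonies below the euploid libraries, beside 44.4% of 36 respiratory genes, 41.2% of 34 methionine and sulfate genes and 5.29% of all genes off XVI.

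Other gene groups varied across libraries beside the amino acid genes. In colonies 1, 2 and 3 the median log2 level of 21 genes of glucose-repressed carbon use was −1.12, −0.16 and −1.03, and that of 19 genes of peroxisomal fatty acid oxidation was −0.94, 0.62 and −0.98. Among euploid libraries, Hh1 colony 3 and Hh3 colony 1 lay at the same end of the first principal component as Hh8 colonies 1 and 3. Their medians were −0.53 and −0.31 for the amino acid list, −1.26 and −0.93 for glucose-repressed carbon use, and −1.27 and −1.14 for peroxisomal oxidation. The part of this shared variation in the amino acid values was not tested.

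Gcn4 binds the sequence TGACTCA, and the promoters of the lower genes were read for it as a description. The window from 400 to 100 bases before the start codon was searched on both strands (TGACTCA and TGAGTCA as read on the gene's strand) in the R64 reference, which is not the sequence of these strains. The motif was in 174 of 5988 protein-coding genes (2.91%), in 26 of the 61 amino acid synthesis genes (42.6%) and in 13 of 37 annotated genes off XVI whose colonies all lay below the euploid libraries (35.1%). It was in none of 18 whose colonies all lay above. Sites of 6 genes described above are shown with 9 bases on either side, on the strand of the gene, with the motif in capitals. They were chosen among the genes named above that hold it, and ARG7, HIS1, HOM3, TRP3 and LYS2 hold it too. ARG4, ARG1, HIS4 and ARO1 are on the amino acid list, STR3 is on the methionine list, and ARO5 is on neither.
ARG4 (chromosome VIII:141566-141590, minus strand): gtagatgaaTGACTCActttttgga
ARG1 (chromosome XV:218857-218881, plus strand): attttttagTGACTCAtgtcgcatt
HIS4 (chromosome III:68517-68541, minus strand): catgcacagTGACTCAcgttttttt
ARO1 (chromosome IV:704252-704276, plus strand): tcatgcataTGACTCAtcccgaaca
ARO5 (chromosome VII:288248-288272, plus strand): catatataaTGAGTCAtttgtttct
STR3 (chromosome VII:156386-156410, minus strand): ttatccggcTGACTCAttctgactc
The motif lies 173, 339, 193, 217, 249 and 383 bases before the start codon in these genes. ARG3 (308 bases before the start codon) and LEU1 (295) hold it too and were at −0.25 and 0.17, so genes with the motif were not all lower. LEU4, ARO3, ARO8, BSC5, YNR068C and GLG2 have no such letters in the window.

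Respiratory genes mostly had ratios below 0. All 16 citric acid cycle genes and 34 of 36 genes of the respiratory chain and ATP synthase off XVI had ratios below 0, with medians of −0.51 and −0.49, and none passed on line sums. The summed level of the 36 genes was 41834, 37925 and 40868 CPM in the 3 colonies, below every euploid library (43313 to 61664 CPM). RIP1, the iron-sulfur protein of complex III, was at 1267, 1094 and 1207 CPM against 1286 to 1935 CPM, just outside the euploid range. KGD2, of the citric acid cycle, was at 900, 885 and 869 CPM against 976 to 1666 CPM (−0.56 ± 0.24, edgeR adjusted p = 0.446). KGD2 also passed as lower in HH112, at −1.46 ± 0.27 (edgeR adjusted p = 0.0345). The 4 respiratory genes on XVI had a median of 0.47 and the 2 citric acid cycle genes one of 0.52, below the 0.92 of all tested XVI genes, and none of the 6 passed.

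Stress and chaperone genes were read by list medians and calls of single genes, and no test of a group was run. The 24 heat shock chaperone genes off XVI had a median of −0.42 and the 47 general stress genes one of 0.04, with GLG2 the only member called. HSP82, the Hsp90 chaperone encoded on XVI, was at 1524, 363 and 1530 CPM against 129 to 2429 CPM and had a ratio of −0.14 ± 0.56. SSE1, a chaperone of the Hsp110 class on XVI, was at 401, 421 and 404 CPM, above all euploid libraries at 167 to 344 CPM, and did not pass (0.77 ± 0.27, edgeR adjusted p = 0.283). CTF19, a kinetochore gene on XVI, rose by 1.5 ± 0.25 (edgeR adjusted p = 0.0281), with colonies at 138, 76.3 and 255 CPM against 33.4 to 85.2 CPM, while none of 35 cell cycle and chromosome segregation genes off XVI passed (median −0.33). CTF19 itself is on the phosphate list and not on that cell cycle list. The 7 members of the cell cycle list on XVI had a median of 0.39, below the 0.92 of all tested XVI genes, and none passed. Of the other lists, general stress on XVI, iron, phosphate off XVI, ergosterol, purine, cell wall, DNA damage, meiosis and the mating-type lists had no member called on line sums.

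TEF2 on chromosome II and TEF1 on XVI encode the same elongation factor eEF1A. TEF2 was at 772, 1862 and 1004 CPM against 335 to 769 CPM, above all euploid libraries, and did not pass on line sums (1.02 ± 0.23, edgeR adjusted p = 0.0686). TEF1 was at 1196, 2661 and 1397 CPM against 714 to 1472 CPM (0.58 ± 0.25, edgeR adjusted p = 0.445). Reads of these copies can be split or lost in counting, so the values of each are uncertain.

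Hh8 was last compared with the 9 other aneuploid Hh lines, to see whether its differences off XVI were shared by lines with other gained or lost chromosomes. These lines are a mixed group. By label they carry trisomy I, V, VII or XII, monosomy I with trisomy XV, or trisomies IX and XIV with partial X. On the 7 chromosomes that no Hh line has altered by label (II, III, IV, VI, VIII, XI and XIII), 170 of 2627 genes differed (6.47% called), 100 higher and 70 lower in Hh8. This comparison shares the Hh8 libraries with the first. Of 26 amino acid synthesis genes there, 8 were lower in Hh8 and none higher (2.66% of all genes on these chromosomes were called lower), with a median of −0.72 beside 0.03 for all genes on these chromosomes. Other lists also held lower genes. Against the same lines 4 of 21 genes of the respiratory chain and ATP synthase, 2 of 7 citric acid cycle genes and 4 of 6 peroxisomal fatty acid oxidation genes were lower and none higher, with medians of −0.71, −0.76 and −1.15. Of 9 genes of glucose-repressed carbon use 1 was lower, PCK1, with a list median of −1.30. ARG4 was at 948 to 2119 CPM over the means of the 9 lines, and Hh8 was lower by −1.99 (edgeR adjusted p = 0.00703). HIS4 (497 to 1199 CPM) was lower by −2.23 and ARO1 (526 to 1206 CPM) by −1.58 (edgeR adjusted p = 0.0165 and 0.0230). In each of the 3 genes no other aneuploid line had a mean as low as any Hh8 colony. The number of differing genes was 599 without Hh8 colony 2 and 99 without colony 3. Without colony 2 and the 3 euploid libraries that stand with it, the number was 514. Then 14 of the 26 amino acid genes were lower, beside 8.13% of all genes on these chromosomes. So were 7 of the 21 respiratory, 3 of the 7 citric acid cycle, 4 of the 6 peroxisomal and 4 of the 9 glucose-repressed genes. Without the 5 libraries with over 30% of reads not uniquely aligned the number of differing genes was 62. In that setting 3 of the 26 amino acid genes (HIS4, ARO1 and ARG4) and 2 of the 21 respiratory genes (ATP5 and COX6) were lower. None of the citric acid cycle and peroxisomal genes was, and 0.686% of all genes on these chromosomes were lower.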

How the data were processed

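Stranded single-end reads of 75 bases were made, per the labels. The deposited counts are whole numbers for each gene. The submitters' processing notes name TopHat2 2.1.1, Trim Galore 0.4.4, HTSeq 0.6.1pl and sacCer3. Their deposited FPKM table (Cuffnorm 2.2.1, per the same notes) served only 1 alternative, and in all 18 libraries the counts matched their own FPKM column best. Rows that name no gene (4.06% to 9.1% of reads lay in no feature) were left out. Strand settings are not given in the sources used here, so overlapping antisense genes are uncertain. Of 7126 features 6086 matched the R64 annotation, which gave symbols and coordinates, and 359 features without a chromosome entered the tests but neither count. Sequences are those of RefSeq R64.

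Colonies of a line were summed, so the line was the replicate. Tests used edgeR 4.0.16 (quasi-likelihood, robust, filterByExpr) in R 4.3.3, with TMM factors from genes off XVI, Benjamini-Hochberg adjustment over all genes and a threshold of 0.05. Hh8, as the only line of its kind, was assumed to vary like the 5 euploid lines. An offset for 4 copies tested departure from proportion. With colonies as samples p-values measure the spread between colonies. Alternatives included DESeq2 1.42.0. No colonies of Hh8 agreed within sampling noise (lowest chi-square per degree of freedom 29.5). The fits were tested on simulated data. Named off-XVI genes were those called, at 5 CPM or more, without overlap. On XVI they were the 5 with the smallest p in each direction of departure, plus list members called and the regulators. Others named were chosen after their values were seen. Members and lists were chosen with earlier results of these data known. The values of 1 gene of the amino acid list are not reported here.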

Additional observations from a re-analysis of the deposited data

Results flagged for a closer look

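YPL257W on chromosome XVI departed from its copy number differently in Hh8 and HH112 by a test of the difference itself, at −2.65 (Hh8 minus HH112). GAS4 on chromosome XV was set apart by a single euploid line: Hh5 was at 6.84 CPM and the other 4 lines were between 5.56 and 5.80 CPM, a gap of 0.812 of the range.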

How the results depend on the processing

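The level of chromosome XVI, 0.93, was 0.89 with a pseudocount of 2, 0.88 with no filter, 0.86 with TMM over all genes and 0.87 from the deposited FPKM, and 0.92 to 0.94 with 1 colony or line left out. The 174 calls on XVI and 9 off XVI were 270 and 93 with DESeq2, 319 and 133 with colonies as samples and 360 and 181 with the colonies of all 15 Hh lines, the planned fit on those lines having no more residual degrees of freedom with line sums. With a replicate block on colony numbers they were 310 and 116. Same-numbered colonies did not deviate together (median r = 0.030, with 20 of 45 pairs over 0.1), so the numbers do not pair samples. Leaving out 1 colony of Hh8 or 1 euploid line gave 0 to 188 calls on XVI and 0 to 45 off XVI, and 0 to 1 genes departing from 4 copies. Genes departing from 4 copies, 0 at first, were 10 with DESeq2, 5 with colonies as samples, 11 with the colonies of all 15 lines and 3 with the block. The single gene differing between Hh8 and HH112 became 3 with DESeq2 and 0 to 1 with a colony or line left out. The 170 genes differing from the other aneuploid lines were 301 with DESeq2 and 99 to 599 with a colony or euploid line left out, and with TMM over all genes they were 176, split into 86 higher and 90 lower in place of 100 and 70. Alternatives added after the data were seen gave these values. Without Hh8 colony 2 and the 3 euploid libraries that stand with it the counts were 45 on XVI, 2 off XVI, 0 differing from HH112 and 514 differing from the other aneuploid lines. Fitting 15 lines in 3 groups gave 17 off XVI, and leaving out the 2 libraries with over 30% of reads not unique gave 19. Leaving out all libraries over that share gave 62 genes differing from the other aneuploid lines and 1 differing from HH112. Among named genes, 4 values reversed: YPR145C-A to −0.002883 without colony 2 (2.499 without colony 3), ANB1 to −0.88 without colony 2 (2.465 without colony 3) and −0.75 without the 4 libraries, and ROX1 to −0.0005444 without those 2 libraries. Of the other values of named genes under an alternative, 354 kept direction and side of the threshold, 78 no longer passed and 23 newly passed. The cause was not tested. On XVI 7 of 63 genes under 10 CPM and 16 of 77 above 200 CPM passed.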
